A study of Homo sapiens with 18 samples.

Results

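The genes described here are HMOX1 and 9 genes of the oxidative-stress response governed by the transcription factor NFE2L2, also called NRF2: GCLC, GCLM, SLC7A11, NQO1, TXNRD1, SRXN1, OSGIN1, KEAP1 and NFE2L2 itself. They are 10 of the 58870 genes in the deposited count table, chosen by symbol, and all 10 passed the filter on low counts that left 17743 genes for testing. HMOX1 was selected on its response to the NRF1 guide, which had opposite signs in 2 of the base editors. Its values are therefore given as a description, with no test. The other 9 members were tested.

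NFE2L2 is held at a low level by KEAP1, an adaptor that hands it to a CUL3 ubiquitin ligase for destruction. Oxidants and electrophiles modify KEAP1, NFE2L2 then accumulates, pairs with small MAF proteins and binds antioxidant response elements, short DNA motifs near genes of glutathione synthesis, thioredoxin recycling, quinone detoxification and haem breakdown. HMOX1, which degrades haem to biliverdin, iron and carbon monoxide, is also repressed by BACH1 and induced by AP-1, heat-shock and metal-responsive factors. NRF1, the gene targeted in this study, is a different protein despite the similar abbreviation: nuclear respiratory factor 1, which binds GC-rich promoter elements. NFE2L1, a relative of NFE2L2, is sometimes also called NRF1, and is named here by its symbol only.

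The study asked how transcription changes when NRF1 loses its alternative exon 7. HEK293T cells, a transformed human embryonic kidney line, were transfected with a plasmid holding a base editor and a guide RNA. A base editor is a Cas9 nickase joined to a deaminase that converts single bases, here at a splice site of the exon. There were 6 groups of 3 libraries: SaABE (ABE8e adenine deaminase on the Staphylococcus aureus nickase) with the NRF1 guide and with an intergenic guide, SpABE (ABE8e on the Streptococcus pyogenes nickase) with each, and SpCBE (evoCDA1 cytosine deaminase on the S. pyogenes nickase) with each. In every group 750000 cells were transfected, puromycin was applied for 48 hours and the cells were lysed at 72 hours, so that the controls also carried an editor, a plasmid and the drug. No library of untransfected cells was analysed here. Whether the 3 libraries of a group were separate cultures is not in the labels. A p-value here therefore rests on the scatter among libraries, and that scatter may be technical.

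The guides are shown because the comparisons between editors turn on which guide each editor carried. Capitals in the NRF1 guides mark bases of exon 7, and lower case marks intron bases. The intergenic guides are in lower case throughout.
SpABE, NRF1: gtgacagGTTTCATGGACCC
SpCBE, NRF1: GAAACctgtcaccaaatgac
SaABE, NRF1: ttactcacCTGGATAAGTGA
SpABE and SpCBE, intergenic: ttgactgcacacaactgggc
SaABE, intergenic: ccattatcgtgacgctatcg
The SpABE and SpCBE guides against NRF1 overlap on opposite strands at the same exon edge, and these editors shared 1 intergenic guide. SaABE was directed to the other edge and had an intergenic guide of its own.

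Antioxidant response elements near the members are shown because they are the DNA feature that defines the pathway. RefSeq promoter windows on GRCh38.p14, reaching 250 bases upstream and 50 bases past the start, were at hand for 8 members, and HMOX1 and SLC7A11 are named only. The core TGACNNNGC, searched on both strands, was present in the windows of GCLM and TXNRD1, 2 of 8 members, against 14.8% of 11609 tested genes with a window. The longer form TGACTCAGC, which also holds an AP-1 site, was searched in the 10000 bases upstream of the start, and was found for GCLC and NQO1, 2 of 8 members, against 12.9% of genes. In the sequences below the capitals mark the motif, on whichever strand it lies, and each line reads 5′ to 3′ along the gene.
GCLM, 34 bases upstream of the start: tacgatttctGCTTAGTCAttgtcttccag
TXNRD1, 99 bases upstream: acacgggctaTGACTTCGCtgttgtcaccg
TXNRD1, 8 bases upstream: gcgtccttcgGCTCCGTCAgttcccacagg
GCLC, 3156 bases upstream: cgcacaaagcGCTGAGTCAcggggaggcgg
NQO1, 455 bases upstream: gcagtcacagTGACTCAGCagaatctgagc
The motifs lie at chr1:93909456-93909464 for GCLM, chr12:104215680-104215688 and chr12:104215771-104215779 for TXNRD1, chr6:53548249-53548257 for GCLC and chr16:69727007-69727015 for NQO1. The core of the NRF1 motif, GCGCANGCG, was in the window of 0 of 8 members, against 14.1% of genes. A match is a stretch of letters and does not show that a factor binds there.

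Estimated counts per library summed to between 28101094 and 40687447, and mitochondrial genes took 0.939 to 1.19% of them. Levels below are CPM, counts brought to a common total after the libraries were scaled by TMM. Markers of HEK293T cells were present in all 18 libraries (VIM 594 to 793 CPM and NEFL 39.1 to 64.1 CPM, scaled by total counts only), whereas the blood, fibroblast and endothelial markers PTPRC, DCN and VWF stayed under 0.2 CPM. Of 6 fibroblast markers COL1A1 was the most abundant, at 13.7 to 22.6 CPM, while COL1A2, DCN and POSTN were under 0.2 CPM. The summed fibroblast markers had 14.7 to 16.6 CPM with the NRF1 guide and 18.5 to 21.0 CPM with the intergenic guide in SaABE, 19.2 to 19.4 and 20.5 to 22.1 CPM in SpABE, and 21.0 to 22.3 and 23.2 to 24.7 CPM in SpCBE. The 4 markers of HEK293T cells were also lower in sum with the NRF1 guide in every editor, at 757 to 778 CPM against 837 to 874 CPM with the intergenic guide in SaABE, 929 to 941 against 953 to 1003 CPM in SpABE, and 941 to 972 against 985 to 1008 CPM in SpCBE. The summed blood markers were lower with the NRF1 guide without overlap in SaABE alone, at up to 1.87 CPM against 2 to 2.28 CPM with the intergenic guide. The fibroblast and HEK293T sums thus moved with the guide as GCLC did, and their part in the results was not tested. NRF1 averaged 40.2 CPM with the NRF1 guide and 32.2 CPM with the intergenic guide in SaABE, 38.3 and 28 CPM in SpABE, and 40.5 and 25.1 CPM in SpCBE. A count over the whole gene does not show skipping of exon 7.

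HMOX1 (chr22:35380361-35394214, plus strand, hg38 with GENCODE 44) was highest in the 3 SpABE libraries with the NRF1 guide, and the editors differed in the direction of its change. In SpABE it had 158, 162 and 159 CPM with the NRF1 guide, against 79.6, 89.7 and 89.0 CPM with the intergenic guide, a log2 fold change of 0.89 ± 0.037 (SE), or 1.85-fold. In SpCBE it had 93.0, 89.3 and 89.4 CPM with the NRF1 guide, against 113, 120 and 116 CPM with the intergenic guide, a log2 fold change of -0.36 ± 0.038. The groups did not overlap in either editor, and the signs were opposite. In SaABE it had 87.9, 94.7 and 88.3 CPM with the NRF1 guide, against 91.1, 89.8 and 89.7 CPM with the intergenic guide, and the groups overlapped, with a log2 fold change of 0.00 ± 0.039. Read by level, 4 of the 6 groups lay together, with means of 90.3 CPM (SaABE, NRF1 guide), 90.6 CPM (SpCBE, NRF1 guide), 90.2 CPM (SaABE, intergenic guide) and 86.1 CPM (SpABE, intergenic guide). Far above them stood SpABE with the NRF1 guide at 160 ± 1.69 CPM (SD, n = 3), and between lay SpCBE with the intergenic guide at 116 ± 3.35 CPM. The negative value in SpCBE thus came with a raised level in its intergenic libraries, while its NRF1-guide libraries lay inside the range of the SaABE libraries. The SpABE effect exceeded the SpCBE effect by 1.25 ± 0.053 on the log2 scale. Without SpABE intergenic replicate 1, the lowest of all 18 libraries, the SpABE value was 0.84.

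**Figure D1:**
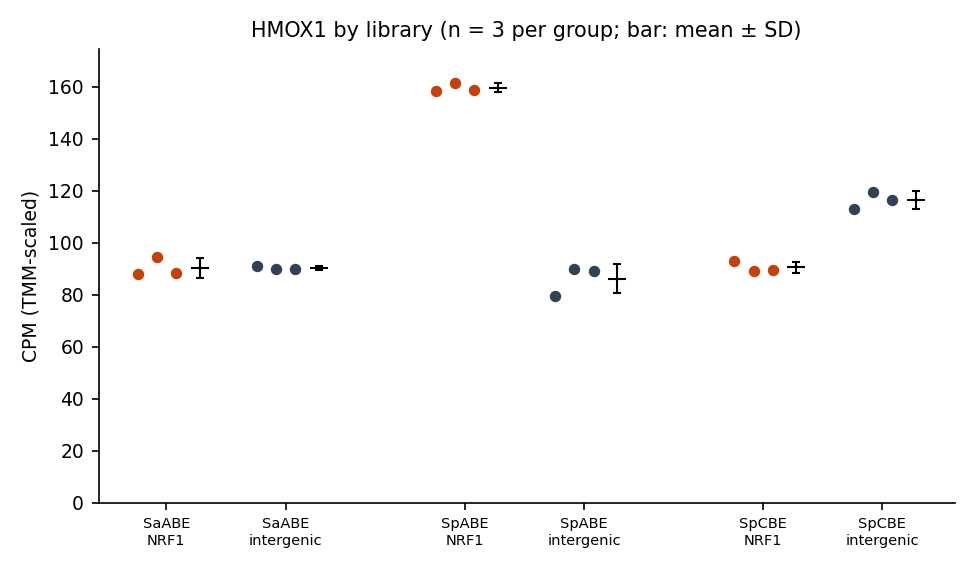
HMOX1 level in TMM-scaled CPM (vertical axis, from 0) in each of the 18 libraries, by editor and guide. Points are libraries and the black bar beside them is the mean ± SD of 3. The 3 SpABE libraries with the NRF1 guide (158 to 162 CPM) stand above all others, followed by the 3 SpCBE libraries with the intergenic guide (113 to 120 CPM), and the other 12 lie between 79.6 and 94.7 CPM.

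Glutathione synthesis is represented by 3 members, and 1 of them fell in every editor. GCLC (chr6:53497341-53616970, minus strand) encodes the catalytic subunit of glutamate-cysteine ligase, the rate-limiting enzyme of the pathway. It had 43.2, 43.2 and 40.6 CPM with the NRF1 guide and 48.5, 50.7 and 50.7 CPM with the intergenic guide in SaABE. In SpABE it had 42.9, 41.9 and 42.6 CPM with the NRF1 guide, against 53.5, 50.6 and 50.4 CPM with the intergenic guide. In SpCBE the values were 42.3, 40.3 and 44.4 CPM with the NRF1 guide, against 53.7, 53.1 and 54.2 CPM with the intergenic guide. All 9 NRF1-guide libraries (40.3 to 44.4 CPM) lay below all 9 intergenic-guide libraries. Over all editors the log2 fold change of GCLC was -0.29 (edgeR quasi-likelihood test, Benjamini-Hochberg adjusted p = 1.25e-09). By editor it was -0.24 ± 0.04, -0.28 ± 0.039 and -0.34 ± 0.038 (SE) in SaABE, SpABE and SpCBE (edgeR adjusted p = 4.76e-05, 3.59e-06 and 2.19e-07). No pair of editors differed in it past the threshold, the widest difference being 0.10 on the log2 scale between SaABE and SpCBE, with a 95% interval from -0.02 to 0.22 (edgeR adjusted p = 0.356). GCLC shares its locus with the antisense gene GCLC-AS1 and with a long non-coding RNA gene on its own strand. The strand setting of the counting is not given in the sources used here.

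GCLM (chr1:93885199-93909456, minus strand), the modifier subunit that makes the ligase more efficient, did not follow GCLC. Its groups overlapped in SaABE and SpABE, and no guide effect passed the test. In SpCBE it had 73.7, 71.0 and 72.8 CPM with the NRF1 guide, against 75.0, 75.9 and 74.2 CPM with the intergenic guide, without overlap but with a log2 fold change of only -0.05 (edgeR adjusted p = 0.44). SLC7A11 (chr4:138164097-138242349, minus strand) is the light chain of the cystine-glutamate exchanger that supplies cysteine for glutathione. Its guide effects were -0.10, 0.07 and -0.05 on the log2 scale in SaABE, SpABE and SpCBE, with overlapping groups throughout and no test passed. The 95% intervals of these effects reached from -0.24 to 0.03 in SaABE and from -0.05 to 0.20 in SpABE.

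NQO1, TXNRD1 and SRXN1 rose with the NRF1 guide in SpABE, and none of them passed the test in SaABE or SpCBE. NQO1 (chr16:69706996-69726668, minus strand), a reductase that detoxifies quinones, had 11.5, 12.6 and 12.9 CPM with the NRF1 guide in SpABE, against 8.38, 9.42 and 10.2 CPM with the intergenic guide. The groups did not overlap, and the log2 fold change was 0.40 ± 0.08 (SE; edgeR adjusted p = 0.000327). In SaABE it had 7.89, 9.06 and 8.81 CPM with the NRF1 guide, against 8.59, 8.89 and 7.92 CPM with the intergenic guide. In SpCBE it had 10.7, 10.4 and 11.5 CPM with the NRF1 guide, against 9.55, 10.9 and 11 CPM with the intergenic guide. The groups overlapped in both of these editors. Over all editors NQO1 passed the test with a log2 fold change of 0.16 ± 0.059 (edgeR adjusted p = 0.0306). This call was lost with total counts as the scaling (edgeR adjusted p = 0.0714), with the replicate number as a block (edgeR adjusted p = 0.05 after rounding, not under it) and without any 1 of 5 libraries, SpABE intergenic replicates 1 and 2, SpABE NRF1 replicates 2 and 3 and SpCBE intergenic replicate 1 (edgeR adjusted p between 0.0527 and 0.0737).

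TXNRD1 (chr12:104215779-104350307, plus strand), the cytosolic thioredoxin reductase, had 290.2, 286 and 283 CPM with the NRF1 guide in SpABE, against 254, 256 and 251 CPM with the intergenic guide. The 3 SpABE libraries with the NRF1 guide were the highest of the 18, and the log2 fold change was 0.18 ± 0.026 (SE; edgeR adjusted p = 1.12e-05). In SaABE the values were 244, 235 and 235 CPM with the NRF1 guide, against 241, 252 and 251 CPM with the intergenic guide. In SpCBE they were 239, 239.8 and 249.5 CPM with the NRF1 guide, against 229, 241 and 234 CPM with the intergenic guide. Both pairs of groups overlapped, at log2 fold changes of -0.06 in SaABE (edgeR adjusted p = 0.109) and 0.05 in SpCBE (edgeR adjusted p = 0.197). TXNRD1 overlaps the intronless gene EID3 on the same strand, and reads there may have been counted for either.

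SRXN1 (chr20:646615-653200, minus strand), sulfiredoxin, which restores over-oxidized peroxiredoxins, had 58.6, 55.5 and 57.5 CPM with the NRF1 guide in SpABE, against 48.2, 52.4 and 52.4 CPM with the intergenic guide. The groups did not overlap, and the log2 fold change was 0.16 ± 0.045 (SE; edgeR adjusted p = 0.00637). Without SpABE intergenic replicate 1 it was 0.13 (edgeR adjusted p = 0.052). In SaABE and SpCBE the groups overlapped, with log2 fold changes of -0.01 and 0.00. SpCBE NRF1 replicate 2, at 51.7 CPM, lay apart from the other SpCBE libraries with that guide, at 60.2 and 59.2 CPM. SRXN1 overlaps a protein-coding gene without a symbol on the same strand.

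OSGIN1 (chr16:83931311-83966332, plus strand), an oxidative stress-induced growth inhibitor, was the least abundant member, with 77 to 118 counts per library. It had 3.14, 3.37 and 2.51 CPM with the NRF1 guide in SpABE, against 2.27, 2.49 and 2.38 CPM with the intergenic guide. In SpCBE it had 2.10, 2.28 and 2.38 CPM with the NRF1 guide, against 2.89, 2.79 and 2.38 CPM with the intergenic guide. The SpABE groups did not overlap and the SpCBE groups overlapped at their edge, and neither effect passed the test (0.33 ± 0.13 and -0.26 ± 0.13 on the log2 scale, edgeR adjusted p = 0.0514 and 0.172). The SpABE effect did pass with RLE size factors as the scaling and without any 1 of 5 libraries. The lowest edgeR adjusted p with 1 library left out was 0.0122. In SaABE the log2 fold change of OSGIN1 was 0.15 ± 0.13 (SE). OSGIN1 overlaps MLYCD on the same strand.

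The regulators NFE2L2 and KEAP1 did not pass the test with the NRF1 guide in any editor. NFE2L2 (chr2:177218667-177392756, minus strand) had 70.2 to 71.6 CPM with the NRF1 guide in SpABE, against 68.7 to 72.2 CPM with the intergenic guide, a log2 fold change of 0.01 with a 95% interval from -0.06 to 0.08 (edgeR adjusted p = 0.867). It had -0.04 in both SaABE and SpCBE (edgeR adjusted p = 0.41 and 0.472). KEAP1 (chr19:10486125-10503558, minus strand) had log2 fold changes of 0.04, -0.05 and -0.03 in SaABE, SpABE and SpCBE (edgeR adjusted p = 0.408, 0.271 and 0.631). Over the 18 libraries the levels ran from 65.8 to 81.3 CPM for NFE2L2 and from 77.1 to 88.0 CPM for KEAP1. With either guide, NFE2L2 was higher in SaABE (76.4 to 81.3 CPM) than in SpABE and SpCBE (65.8 to 72.2 CPM), without overlap. The RNA levels of NFE2L2 and KEAP1 do not report the amount of NFE2L2 protein, which was not measured. Several genes overlap the NFE2L2 locus on either strand.

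**Figure D2:**
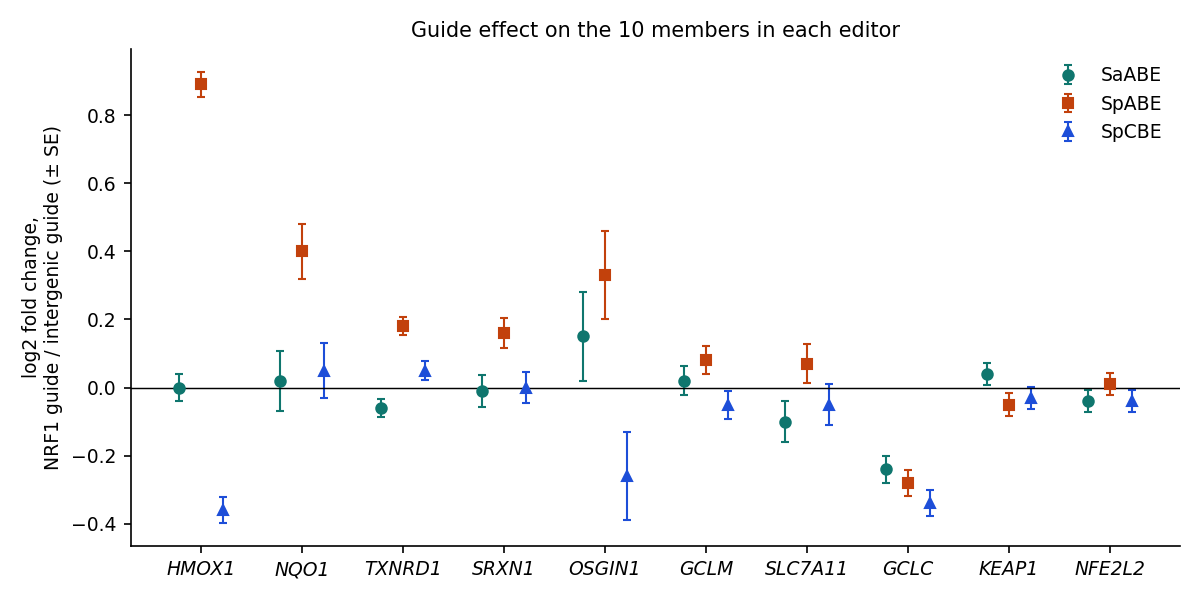
Log2 fold change of the NRF1 guide over the intergenic guide (vertical axis, ± SE) for each member in SaABE, SpABE and SpCBE, from the fit over 18 libraries. HMOX1 is at 0.89 in SpABE and -0.36 in SpCBE, GCLC lies between -0.24 and -0.34 in all 3 editors, and NQO1, TXNRD1 and SRXN1 are above 0 past the test in SpABE.

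**Figure D3:**
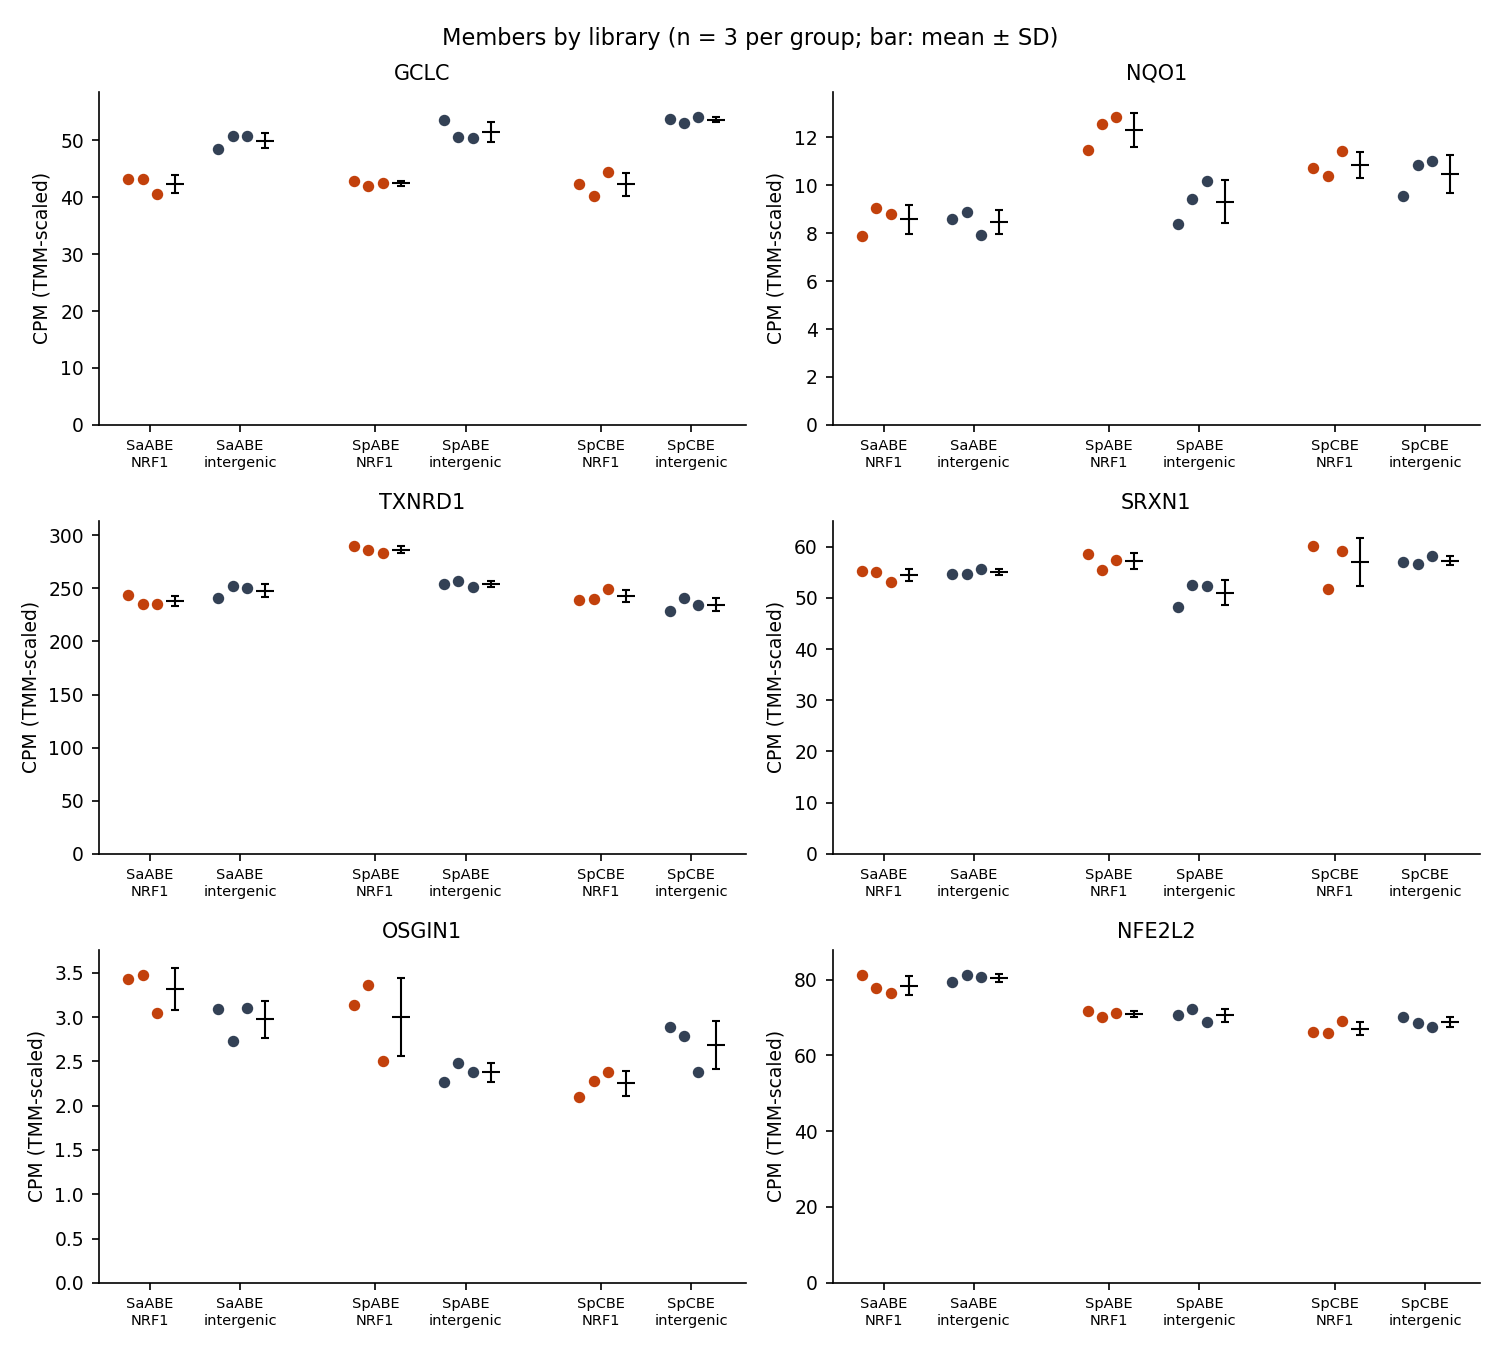
Levels of 6 members in TMM-scaled CPM (vertical axes, from 0) in each library, by editor and guide, with the mean ± SD of 3 as a black bar. The GCLC libraries with the NRF1 guide (40.3 to 44.4 CPM) lie below those with the intergenic guide in every editor, and the TXNRD1 libraries of SpABE with the NRF1 guide stand highest.

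Counted over the 9 tested members, 4 passed the test in SpABE (NQO1, TXNRD1 and SRXN1 higher, GCLC lower), against 32.6% of all genes tested in that editor. The 3 higher members compare with 15.4% of all genes that passed with a higher level. In SaABE and in SpCBE 1 of 9 passed, GCLC in both, against 32.4% and 23.1% of all genes. Over all editors 2 of 9 passed, GCLC and NQO1, against 39.4% of all genes. Their median log2 fold change was 0.08 in SpABE, against 0.00 over all genes, -0.01 in SaABE, against 0.01 over all genes, and -0.04 in SpCBE, against 0.01 over all genes. No tested member had an absolute log2 fold change over 0.5, so 0 of 9 were called by the study's rule, an adjusted p under 0.05 with such a fold. By edgeR 3 of 9 had an unadjusted p under 0.05 over all editors, and DESeq2 passed 2 over all editors and 4 in SpABE without regard to the fold. With total counts as the scaling, 39.6% of all genes that passed over all editors were higher, against 52.3% with TMM, and the shares were 36.1% against 52.2% in SaABE and 37.1% against 47.1% in SpABE. The study's rule called 5.5% of all genes over all editors and 6.41% in SpABE. Without SaABE intergenic replicate 1 the count in SaABE was 3, with SLC7A11 at -0.17 and TXNRD1 at -0.08 on the log2 scale.

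The effects of the editors were then compared with each other. Each editor had an NRF1 guide of its own, so that editor and NRF1 guide cannot be told apart in these differences. Between SaABE and SpABE 2 of 9 members differed past the test, against 11.7% of all genes. TXNRD1 had an effect lower by 0.23 ± 0.038 (SE) in SaABE than in SpABE on the log2 scale (edgeR adjusted p = 0.000224), which held without any 1 library (edgeR adjusted p at most 0.00113). NQO1 had an effect lower by 0.38 ± 0.12 (edgeR adjusted p = 0.0375). The NQO1 difference did not pass with DESeq2 (adjusted p = 0.0543) or without any 1 of 8 libraries, SaABE intergenic replicates 1 and 2, SaABE NRF1 replicates 1 and 3, SpABE intergenic replicates 1 and 2 and SpABE NRF1 replicates 2 and 3 (edgeR adjusted p between 0.0539 and 0.112). The DESeq2 count was 1 of 9.

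Between SpABE and SpCBE, which shared the intergenic guide but not the NRF1 guide, 2 of 9 members differed past the test, against 8.96% of all genes. The SpABE effect exceeded the SpCBE effect by 0.59 ± 0.18 (SE) on the log2 scale for OSGIN1 (edgeR adjusted p = 0.0452) and by 0.13 ± 0.038 for TXNRD1 (edgeR adjusted p = 0.0369). Both calls were lost with the replicate number as a block (edgeR adjusted p = 0.0895 for OSGIN1 and 0.0939 for TXNRD1) and without a filter on low counts (edgeR adjusted p = 0.134 and 0.112), and DESeq2 passed 1 of 9, without OSGIN1 (adjusted p = 0.126). The OSGIN1 call was lost without any 1 of 12 libraries: SaABE NRF1 replicate 1, SaABE intergenic replicate 3, every SpABE library except NRF1 replicate 3 and every SpCBE library except intergenic replicate 3 (edgeR adjusted p between 0.0511 and 0.122). The TXNRD1 call was lost without any 1 of 10 libraries: all of SpABE, SpCBE NRF1 replicates 1 and 2 and SpCBE intergenic replicates 2 and 3 (edgeR adjusted p between 0.0539 and 0.102). Between SaABE and SpCBE 0 of 9 members differed past the test by edgeR or by DESeq2, against 4.09% of all genes by edgeR, and 2 of 9 had an unadjusted p under 0.05 by edgeR. SRXN1 and GCLM did not differ past the test between any pair of editors, and the SpABE effect less the SpCBE effect of SRXN1 was 0.17 with a 95% interval from 0.03 to 0.31 (edgeR adjusted p = 0.106).

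Since HMOX1 already stood apart in the SpCBE intergenic libraries, the members were compared between editors with the intergenic guides alone. SpCBE and SpABE carried the same intergenic guide, and HMOX1 was 1.35-fold higher in SpCBE, given without a test. SRXN1 was higher in SpCBE by 0.17 ± 0.045 (SE) on the log2 scale (edgeR adjusted p = 0.00591), with 57.0, 56.6 and 58.2 CPM in SpCBE, against 48.2, 52.4 and 52.4 CPM in SpABE. TXNRD1 was lower in SpCBE by 0.11 (edgeR adjusted p = 0.00184), without overlap. SLC7A11 had 73.1, 64.4 and 65.7 CPM in SpCBE, against 82.5, 78.8 and 72.5 CPM in SpABE, a log2 fold change of -0.20 (edgeR adjusted p = 0.00877) between groups that overlapped. The SLC7A11 call was lost without SpABE intergenic replicate 1 or SpCBE intergenic replicate 2 (edgeR adjusted p = 0.0589 and 0.0528). These 3 of 9 members compare with 35.5% of all genes. With total counts as the scaling 7 of 9 passed, 5 of them higher in SpCBE, and 68.0% of all genes that passed were higher, against 50.1% with TMM.

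SaABE and SpABE had different intergenic guides, so that editor and guide cannot be told apart in this comparison. NFE2L2 was higher in SaABE by 0.19 ± 0.032 (SE) on the log2 scale (edgeR adjusted p = 3.95e-05), without overlap. GCLM was higher by 0.13 (edgeR adjusted p = 0.0134), with 73.5, 85.1 and 74.6 CPM in SaABE, against 70.5, 71.9 and 70.1 CPM in SpABE. The GCLM value was 0.06 without SaABE intergenic replicate 2 (edgeR adjusted p = 0.172), and with total counts as the scaling its call was lost (edgeR adjusted p = 0.0673), while TXNRD1 passed lower in SaABE. The count of 2 thus did not hold the same members, and 38.5% of all genes that passed were higher with total counts, against 50.2% with TMM. These 2 of 9 members compare with 38.4% of all genes. The guide effects given above and these comparisons share the same intergenic libraries. SpABE intergenic libraries enter the SpABE effect of HMOX1 as well as its difference from SpCBE.

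**Figure D4:**
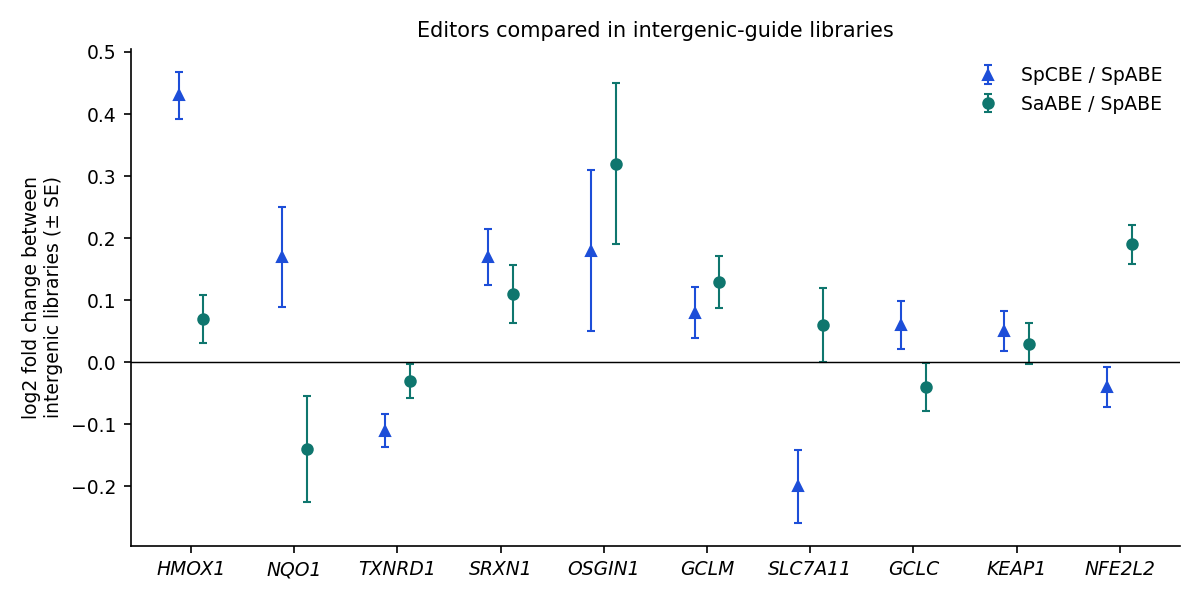
Log2 fold change between intergenic-guide libraries (vertical axis, ± SE) for the 10 members, SpCBE over SpABE and SaABE over SpABE, 3 libraries per group. HMOX1 has the highest value for SpCBE over SpABE, 0.43, and NFE2L2 is at 0.19 for SaABE over SpABE.

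Per kilobase of merged exons, the mean level over 18 libraries was 46.0 CPM for HMOX1 and 37.4 CPM for TXNRD1. KEAP1 had 23.2, SRXN1 21.9 and GCLM 13.8 CPM per kilobase, and SLC7A11 7.79, GCLC 5.45, NFE2L2 4.85 and NQO1 3.37 CPM per kilobase. OSGIN1 was lowest at 0.498 CPM per kilobase. HMOX1 and OSGIN1 were thus the ends of the range by this measure.

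The pattern of HMOX1 over the 18 libraries was compared with that of other genes as a description, since libraries of a group share its level. Among tested genes with a mean of at least 5 CPM, the Pearson correlation of log2 CPM with HMOX1 was highest for TMBIM6 (0.919), SLC25A25 (0.889), SF3A1 (0.879), TUFT1 (0.875) and ZNF296 (0.871). All of these were highest in SpABE with the NRF1 guide. They were chosen by their correlation with HMOX1, so that sharing its high groups is no separate result. ZNF296 averaged 21.7 CPM in SpABE with the NRF1 guide, against 11 CPM with the intergenic guide, and TUFT1 averaged 65.3 and 39.3 CPM. SLC25A25, a mitochondrial carrier, TMBIM6, a membrane protein of the endoplasmic reticulum, and TUFT1 had their second highest mean in SpCBE with the intergenic guide, as HMOX1 did, and SF3A1 and ZNF296 in SpCBE with the NRF1 guide. Spearman correlations for the 5 genes were lower, 0.585 to 0.690. Among the members, NQO1 had a Pearson correlation of 0.76 with HMOX1, TXNRD1 0.67 and SRXN1 0.50, while KEAP1 had -0.50 and GCLC -0.19. The Spearman correlations were 0.71 for NQO1, 0.61 for SRXN1 and -0.33 for KEAP1, but only 0.14 for TXNRD1, whose 3 highest libraries were those of SpABE with the NRF1 guide.

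The proteins around NFE2L2 were examined through 2 lists. Of 7 tested partners, relatives and BACH repressors, 4 rose and 1 fell in SpABE, 2 rose in SaABE, and 3 fell in SpCBE. Over all genes tested, 15.4% rose and 17.3% fell in SpABE, 16.9% rose and 15.5% fell in SaABE, and 11% rose and 12% fell in SpCBE. With 7 genes, the numbers that passed in SaABE and SpCBE cannot be set apart from the 32.4% and 23.1% of all genes that passed there. NFE2L1, a factor that activates proteasome genes, had a log2 fold change of 0.29 in SpABE (edgeR adjusted p = 2.61e-08) and 0.14 over all editors (edgeR adjusted p = 0.000422). BACH1, the repressor of HMOX1, had 0.23 in SpABE (edgeR adjusted p = 2.17e-05) and -0.02 in SpCBE (edgeR adjusted p = 0.694). MAFF, a small MAF protein singled out after its values were seen, had 0.30 in SpABE and -0.25 in SpCBE (edgeR adjusted p = 0.000232 and 0.00398), and these effects differed by 0.55 ± 0.085 (SE; edgeR adjusted p = 0.000147). Of 9 genes of NFE2L2 degradation and KEAP1 interaction, 3 rose and 2 fell in SpABE, 2 rose and 2 fell in SaABE, and 3 fell in SpCBE. With 9 genes, these numbers cannot be set apart from the shares of all genes that passed. RBX1 and GSK3B, the RING subunit of the ligase and a kinase that marks NFE2L2 for destruction, fell over all editors by 0.22 and 0.16 on the log2 scale (edgeR adjusted p = 1.02e-07 and 8.31e-07), while SKP1 rose by 0.14 (edgeR adjusted p = 7.91e-06).

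Antioxidant enzymes outside the members moved in both directions over all editors, where 20.6% of all genes tested rose and 18.8% fell. The medians of the 12 lists over all editors lay between -0.02 and 0.13 on the log2 scale, against 0.01 over all genes, and the members are in none of the lists. Of 18 tested genes of glutathione synthesis and use, 6 rose and 6 fell over all editors. The glutathione transferases GSTK1 and GSTM3 had log2 fold changes of -1.42 and -0.65, and CHAC2, which degrades glutathione, had -0.74 (edgeR adjusted p = 6.94e-18, 5.68e-15 and 2.49e-11). Of 13 thioredoxin and peroxiredoxin genes, 8 rose and 3 fell over all editors. TXNRD3, a paralog of TXNRD1, fell by 0.74, while PRDX1 and TXN rose by 0.16 and 0.19 (edgeR adjusted p = 7.38e-11, 2.37e-08 and 8.8e-08). Of 9 NADPH-supplying genes 5 rose and 0 fell over all editors, with ME2 at 0.18, MTHFD1L at 0.17 and PGD at 0.10 on the log2 scale (edgeR adjusted p = 2.38e-06, 3.6e-07 and 0.00034). Of 13 detoxification enzymes and exporters 2 rose and 3 fell. The number that passed was near the 39.4% of all genes, so this count is no result about the list. CBR1, a carbonyl reductase, was lower by 0.65 (edgeR adjusted p = 2.63e-17). AKR1B1 was higher by 0.19 and EPHX1 lower by 0.14 (edgeR adjusted p = 3.98e-08 and 0.00014). Of 11 tested rows of superoxide and peroxide removal, 4 rose and 1 fell, also near the share of all genes that passed. MSRA, which repairs oxidized methionine, rose by 0.74 (edgeR adjusted p = 1.98e-08), SOD1 by 0.07 and the more abundant of the rows named SOD2 by 0.10.

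Of 12 genes of haem breakdown and iron storage, a list without HMOX1, 4 rose and 0 fell in SpABE, 4 rose and 3 fell in SaABE, and 2 rose and 0 fell in SpCBE. The number that passed was near the share of all genes in SpABE (32.6%) and under it in SpCBE (23.1%). The counts in SpABE and SpCBE are therefore no result about the list. In SaABE the number that passed was above the 32.4% of all genes, with genes in both directions. HMOX2, named after its values were seen, had a log2 fold change of -0.58 in SaABE (edgeR adjusted p = 4.3e-10). It had 0.03 in both SpABE and SpCBE (edgeR adjusted p = 0.627 and 0.645). The median log2 fold change of the list was 0.09 in SpABE, 0.07 in SaABE and 0.04 in SpCBE. FTL, the light chain of ferritin, which stores the iron that haem breakdown releases, had a log2 fold change of 0.44 in SpABE (edgeR adjusted p = 1.57e-11), 0.10 in SaABE and 0.01 in SpCBE, and its SpABE effect exceeded its SpCBE effect by 0.44 ± 0.042 (SE; edgeR adjusted p = 2.55e-07). FTH1, the heavy chain, was named after its values were seen, and had 0.33 in SpABE and -0.14 in SaABE (edgeR adjusted p = 7.4e-10 and 0.000245). Both ferritin genes have near-identical pseudogenes, and their counts are uncertain. NCOA4, the receptor that delivers ferritin for degradation, and TFRC, the transferrin receptor, rose over all editors by 0.13 and 0.15 (edgeR adjusted p = 0.000116 and 0.000141).

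Other stress programmes that can act on HMOX1 were set beside it. Of 11 AP-1 and other stress-activated factors, 9 rose and 0 fell in SpABE with a median log2 fold change of 0.44, 4 rose and 0 fell in SaABE with a median of 0.08, and 0 rose and 6 fell in SpCBE with a median of -0.15. Among all genes 15.4% rose in SpABE, 16.9% rose in SaABE and 12% fell in SpCBE. In the test between editors, 8 of these 11 had a higher effect in SpABE than in SpCBE and 0 a lower one, against 4.54% higher and 4.42% lower among all genes. FOS had log2 fold changes of 0.70 in SpABE, 0.26 in SaABE and -0.24 in SpCBE (edgeR adjusted p = 6.61e-12, 0.000157 and 0.00441), and its SpABE effect exceeded its SpCBE effect by 0.94 ± 0.075 (SE; edgeR adjusted p = 1.28e-08). GADD45B had 0.55 in SpABE, 0.42 in SaABE and -0.24 in SpCBE (edgeR adjusted p = 6.61e-12, 2.19e-09 and 4.15e-05), a difference of 0.80 ± 0.053 between SpABE and SpCBE (edgeR adjusted p = 6.65e-10). EGR1 had 0.49 in SpABE, 0.58 in SaABE and 0.07 in SpCBE, so its highest value was not in the editor where HMOX1 was high. With the NRF1 guide these genes moved as HMOX1 did in SpABE and SpCBE, and 4 of them also rose in SaABE, where the HMOX1 groups overlapped. Their part in the HMOX1 values was not tested.

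Of 12 ATF4 targets, genes of the integrated stress response, 9 rose and 0 fell in SpABE, 5 rose and 1 fell in SaABE, and 5 rose and 2 fell in SpCBE, where 15.4%, 16.9% and 11% of all genes rose. ATF5 rose in every editor, by 1.24 in SpABE, 0.79 in SaABE and 1.11 in SpCBE on the log2 scale (edgeR adjusted p = 2.91e-16, 1.74e-12 and 2.21e-15). ATF4 and PSAT1 rose over all editors by 0.17 and 0.18 (edgeR adjusted p = 8.06e-09 and 4.43e-08). SLC3A2, the heavy chain that pairs with SLC7A11, was named after its values were seen, and had 0.38 in SpABE and -0.08 in SpCBE (edgeR adjusted p = 1.81e-10 and 0.061). Of 12 inducible heat-shock genes 7 rose and 3 fell in SpABE, 7 rose and 3 fell in SaABE, and 2 rose and 4 fell in SpCBE. HSPA1A had 0.66 in SaABE, where the HMOX1 value was 0.00, 0.18 in SpABE and -0.01 in SpCBE, HSPA4L fell by 0.69 and HSPD1 rose by 0.12 over all editors (edgeR adjusted p = 3.72e-13 and 0.000372). Of 5 tested metal-response genes 1 rose and 1 fell in SpABE, 2 rose and 0 fell in SaABE, and 0 passed in SpCBE. With 5 genes, these numbers cannot be set apart from the shares of all genes that passed. MTF1 had 0.12 over all editors (edgeR adjusted p = 0.00635).

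Between the intergenic libraries, most tested genes of these lists were lower where HMOX1 was higher. In SpCBE over SpABE, where HMOX1 was 1.35-fold higher, 2 AP-1 and other stress-activated factors were higher and 6 lower of 11 (median log2 fold change -0.13), 0 heat-shock genes were higher and 11 lower of 12 (median -0.65), and 3 ATF4 targets were higher and 8 lower of 12 (median -0.15). Among all genes 17.8% were higher and 17.7% lower in that comparison. In SaABE over SpABE, where HMOX1 had a log2 fold change of 0.07 ± 0.039 (SE) and its groups overlapped, 7 AP-1 and other stress-activated factors were higher and 3 lower, 9 heat-shock genes were higher and 2 lower, and 10 ATF4 targets were higher and 2 lower, against 19.3% higher and 19.1% lower among all genes. The guide effects share these intergenic libraries.

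**Figure D5:**
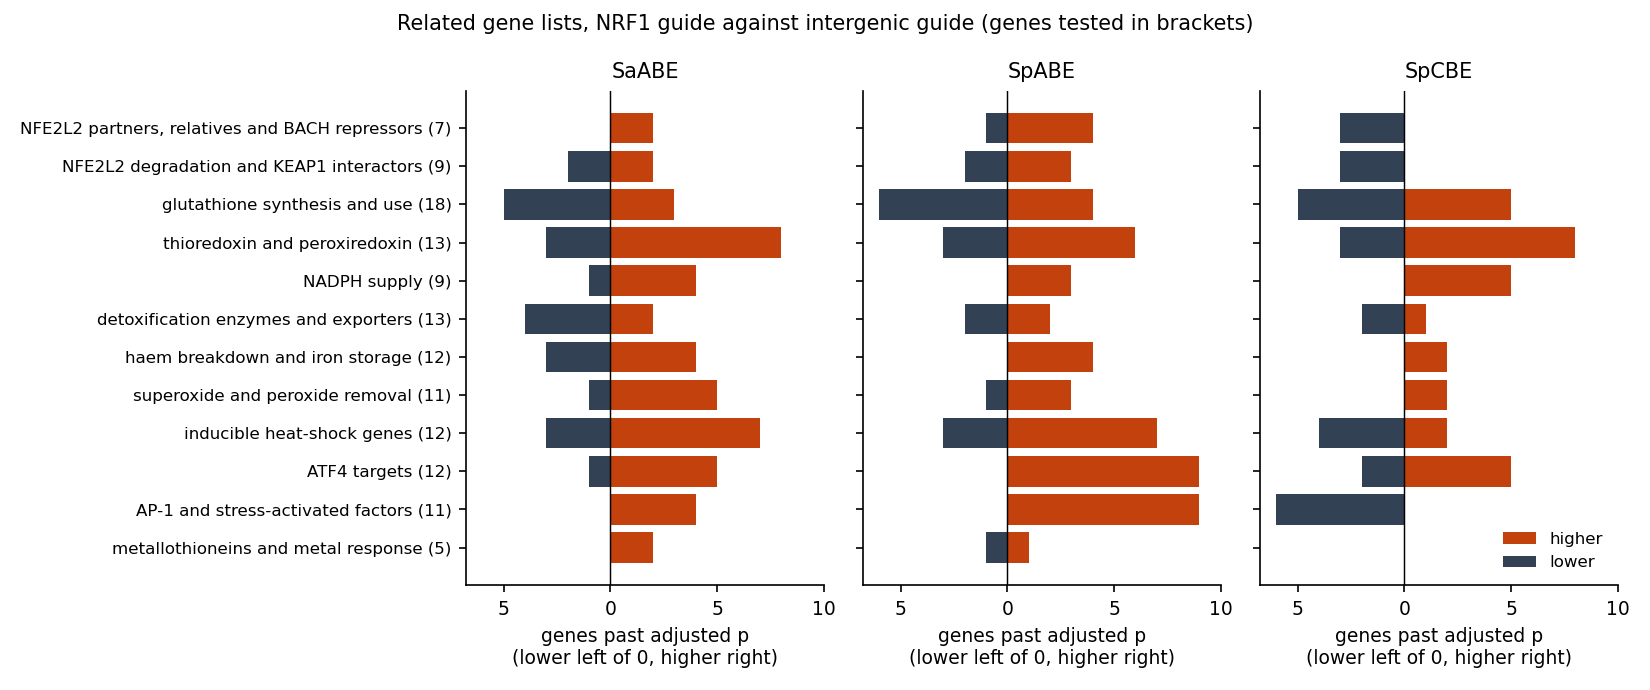
Number of genes past an adjusted p of 0.05 in each related list (horizontal axis, lower to the left of 0 and higher to the right) with the NRF1 guide over the intergenic guide, in SaABE, SpABE and SpCBE, with the genes tested in brackets. AP-1 and stress-activated factors have 9 of 11 higher in SpABE and 6 of 11 lower in SpCBE.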

How the data were processed

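Polyadenylated RNA of 18 HEK293T libraries was sequenced from a stranded kit. Before deposit, the authors used Cutadapt 1.18 for trimming and STAR 2.7.0f for mapping to hg38 with GENCODE transcripts, and the processing notes name DESeq2 1.46.0. How reads were counted per gene, and with which strand setting, the sources used here do not say. As deposited by the authors, the table holds estimated counts for each gene without any normalization, and 19.63% of nonzero values were not whole. They were rounded, and 18 of its 36 sample columns were not used. Genes were filtered with filterByExpr by group and scaled by TMM, and edgeR 4.0.16 (R 4.3.3) quasi-likelihood tests were adjusted by Benjamini-Hochberg over 17743 genes. A gene passed at an adjusted p under 0.05 and was called when its absolute log2 fold change was also over 0.5. The fit over all editors had the editor as an additive term. Other comparisons used 6 group means over all 18 libraries, with a biological coefficient of variation of 3.1%. Libraries of a group all differed beyond sampling noise and were counted singly. The fitting steps were tested on simulated data.

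Whether the replicate numbers pair the libraries was checked from the deviations of log2 CPM from the group means over 10023 genes with a mean of at least 10 CPM. In SpABE the rank correlations of same-numbered libraries were 0.159, 0.12 and 0.123, all over 0.1, while Pearson correlations were -0.0602, 0.0272 and 0.166. In SaABE and SpCBE neither measure was over 0.1 for every number. The SaABE rank correlation was 0.353 for NRF1 replicate 1 with intergenic replicate 2, and 0.373 for NRF1 replicate 2 with intergenic replicate 1. Same-numbered replicates 1 and 2 of SaABE had -0.375 and -0.36. Rank correlations above those of same-numbered SpABE libraries thus also arose between libraries of different numbers. The labels do not say what a number marks. The SpABE numbers were taken as a tentative pairing, and values with the block are given where they change a call. The block was set in every editor, also in SaABE and SpCBE, where the correlations did not point to a pairing.

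The members and lists were chosen with earlier results of these data known. Named genes were the 10 members, up to 3 genes per list with the smallest p over all editors among those past the test, and the 5 genes most correlated with HMOX1 that have a mean of at least 5 CPM and a symbol other than a clone name. Alternatives were DESeq2 1.42.0, other scalings and filters, a replicate block, no editor term, single-editor fits and leaving out each library. Positions are from GENCODE 44, and promoter windows from RefSeq GRCh38.p14, where 11609 of 17726 tested symbols matched.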

Additional observations from a re-analysis of the deposited data

Results flagged for a closer look

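The guide effect on HMOX1 had opposite signs in SpABE and SpCBE, and the groups with each guide did not overlap in either editor. The SpABE effect exceeded the SpCBE effect by 1.25 on the log2 scale. This difference was not tested, because it chose the gene. OSGIN1 and TXNRD1 also had higher effects in SpABE than in SpCBE, by 0.59 and 0.13 on the log2 scale (edgeR adjusted p = 0.0452 and 0.0369), and the single-library omissions that end these calls are given with them. Between SaABE and SpABE the effect differed by -0.38 for NQO1 and -0.23 for TXNRD1 (edgeR adjusted p = 0.0375 and 0.000224), lower in SaABE. The comparisons share the SpABE libraries, so the differences do not count as separate evidence.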

How the results depend on the processing

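The fold changes of the members counted as unchanged in 328 of 352 values under the other settings and in 886 of 954 values with 1 library left out. For the tested members this meant the same direction and the same side of the threshold. For HMOX1, which was not tested, it meant a value within 1 SE of the main one, also where a sign turned near 0. With total counts as the scaling, members past the test numbered 1 over all editors, 2 in SaABE, 1 between SaABE and SpCBE effects and 7 between the SpCBE and SpABE intergenic libraries. Without a filter on low counts they numbered 2 in SaABE, 0 between SpABE and SpCBE effects and 4 between SaABE and SpABE effects. With DESeq2 1 passed between SpABE and SpCBE effects and 1 between SaABE and SpABE effects. With RLE size factors 5 passed in SpABE, where OSGIN1 was brought in, and 3 between SpABE and SpCBE effects, where NQO1 was brought in. With the replicate block 1 passed over all editors and 0 between SpABE and SpCBE effects, and the block changed no other call. Without the editor term 1 passed over all editors. With 1 library left out the counts ran from 1 to 3 over all editors, 1 to 3 in SaABE, 3 to 5 in SpABE, 0 to 2 between SpABE and SpCBE effects, 1 to 3 between SaABE and SpABE effects, 2 to 4 between SpCBE and SpABE intergenic libraries and 2 to 3 between SaABE and SpABE intergenic libraries. Signs turned only for values that did not pass or were not tested. HMOX1 in SaABE, untested and at 0.00, was -0.041 with total counts and 0.004 with RLE size factors, and ran from -0.034 to 0.018 with 1 library left out. With total counts the others were GCLM over all editors (-0.010) and in SaABE (-0.019), NQO1 (-0.021) and KEAP1 (-0.001) in SaABE and NFE2L2 in SpABE (-0.017), and SRXN1 in SpCBE was 0.000 with RLE size factors and 0.003 without the filter. With 1 library left out, values ran from -0.044 to 0.003 for SLC7A11 over all editors, from -0.017 to 0.091 for GCLM, from -0.027 to 0.076 for NQO1 and from -0.025 to 0.005 for SRXN1 in SaABE, from -0.003 to 0.026 for NFE2L2 in SpABE, and in SpCBE from -0.078 to 0.019 for SLC7A11, from -0.004 to 0.092 for NQO1, from -0.039 to 0.066 for SRXN1 and from -0.040 to 0.001 for KEAP1. Total counts also ended the GCLM call between SaABE and SpABE intergenic libraries and brought in TXNRD1 there, at an unchanged count of 2. Among all genes that passed, 30.8% had a higher effect in SaABE than in SpCBE with total counts, against 49.3% with TMM. The cause was not tested. Depth limits OSGIN1 most, at 77 to 118 counts per library.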
